A study of Mus musculus with 24 samples.

Results

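Organ of Corti (OC) explants exposed for 6 h to pioglitazone together with gentamicin (PIO + GM) were compared with explants kept for 6 h without either drug (CTRL), over all genes of the deposited counts. The comparison takes 6 of the 24 samples of the series, chosen by their labels alone, with 3 libraries a side. The OC is the sensory strip of the cochlea, and each library pooled 6 explants from C57BL/6N mouse pups of both sexes at postnatal day 5, cultured for a day before the drugs were added. PIO + GM explants received 10 µM pioglitazone and 50 µM gentamicin, and CTRL explants received neither. The remaining libraries hold gentamicin alone (GM) and pioglitazone alone (PIO) at 6 h, and the same treatments at 24 h. An explant holds hair cells, supporting cells, nerve, glia, connective tissue and vessels, so that in these bulk libraries fewer cells of a type and less RNA per cell cannot be told apart.

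Gentamicin is an aminoglycoside antibiotic that enters hair cells and kills them. Pioglitazone activates PPAR-γ, a nuclear receptor that pairs with RXR and turns on genes of fatty acid uptake, storage and oxidation, and that represses inflammatory genes in many tissues. Type I interferons act through the receptor IFNAR, the kinases JAK1 and TYK2, and a transcription factor complex that holds IRF9 and binds interferon-stimulated response elements in the promoters of antiviral genes. The comparison addresses which genes change early in explants that receive the antibiotic together with the PPAR-γ agonist.

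Library totals, as reads counted on genes, were 12660352, 11809855 and 12416638 in CTRL and 11656650, 12795988 and 7211357 in PIO + GM. All values per library below follow the order of replicates 1, 2 and 3. Values of single genes are in CPM, read counts scaled to a common library size with edgeR's TMM factors. Sums over gene lists are in CPM of the unscaled library total. A count of 3 corresponds to a CPM between 0.24 and 0.405 in these libraries, which covers counting error only.

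The 3 PIO + GM libraries did not stand together. On the first principal component of the 6 libraries (43.5% of the variance), PIO + GM replicate 1 (-22.3) lay among the CTRL libraries (-27.3, -33.7 and -12.6), while replicates 2 and 3 lay at 31.8 and 64.1. Gene by gene, the deviation of replicates 2 and 3 from the mean of the 6 h libraries fell with transcript GC content (Spearman's rho of -0.56 and -0.63 across genes), against 0.25 for replicate 1 and 0.09 to 0.53 in CTRL. Counts on olfactory and vomeronasal receptor genes, which the OC has little use for, were 144, 99.2 and 275 CPM of the unscaled library total in PIO + GM and 100 to 117 in CTRL. CTRL replicate 2 had 4.32 CPM, likewise unscaled, on the Y chromosome, against 125 to 344 in the other 5 libraries, so the sexes of the pooled pups differed between libraries. Each pair of replicates differed by more than counting noise (chi-square per degree of freedom of 14.9 or more).

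Of 16317 genes tested with one edgeR quasi-likelihood model of all 24 libraries, 431 (2.64%) passed an adjusted p of 0.05 in PIO + GM against CTRL at 6 h. Of these, 261 (1.6%) were higher and 170 (1.04%) lower. An unadjusted p under 0.05 was found for 3851 of the 16317 genes, which is the background for the unadjusted counts of lists below. DESeq2 called 745 genes higher and 543 lower of 14417, which is the background for its counts of lists below. Of the 431 genes called by edgeR, those that rose included 11 genes of the interferon response and 3 of fatty acid oxidation. Those that fell included 6 keratins and junction genes and 4 contractile genes. Among the called genes, 414 had PIO + GM libraries that did not overlap with those of CTRL. Over all tested genes, the libraries of the groups did not overlap for 1575 genes higher in PIO + GM (9.65%) and 1345 lower (8.24%).

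How many genes were called depended on single libraries and on the fit. Without PIO + GM replicate 1, 3567 genes were called. Without PIO + GM replicate 2 or 3, 31 and 39 were called, and without CTRL replicate 1, 2 or 3, 37, 391 and 55. A model of the 12 libraries of 6 h, and one of the 6 libraries compared, each called only Gbp6 and Iigp1, both higher. All 431 genes kept their direction without any of the 6 libraries. Since the groups did not overlap for 414 of them, this was largely set by how they were chosen and is no independent check. Without TMM factors, 329 genes were called higher and 122 lower.

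**Figure D1:**
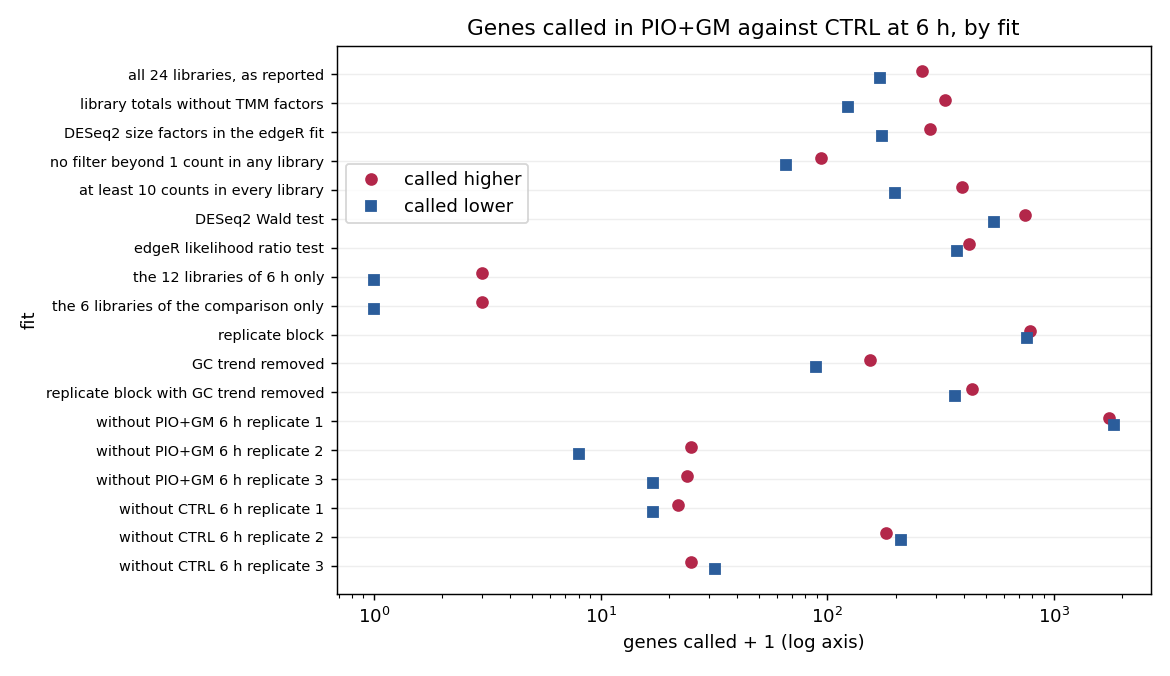
Number of genes called higher (circles) and lower (squares) in PIO + GM against CTRL at 6 h, plus 1, on a log axis, for each fit (rows). The fit of all 24 libraries called 261 and 170 genes, the fits of 12 or 6 libraries 2 and 0, and the fit without PIO + GM replicate 1 the most, 1742 and 1825.

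Fold changes followed GC content. Across genes, the log2 fold change of PIO + GM against CTRL had a Spearman's rho of -0.58 with the GC content of the longest transcript, which is a description across genes that share the same 6 libraries. In the fifth of genes with the lowest GC content (31.0 to 43.9%), the median log2 fold change was 0.30, with 121 genes called higher and 3 lower. In the fifth with the highest (55.6 to 72.8%), it was -0.40, with 3 called higher and 66 lower. With a smooth GC trend removed from each library, 241 genes were called (153 higher, 88 lower), of which 182 were among the 431, and 431 of the 431 kept their direction. The part of GC content in the calls was otherwise not tested, so values with the trend removed are given beside many of the gene groups below.

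**Figure D2:**
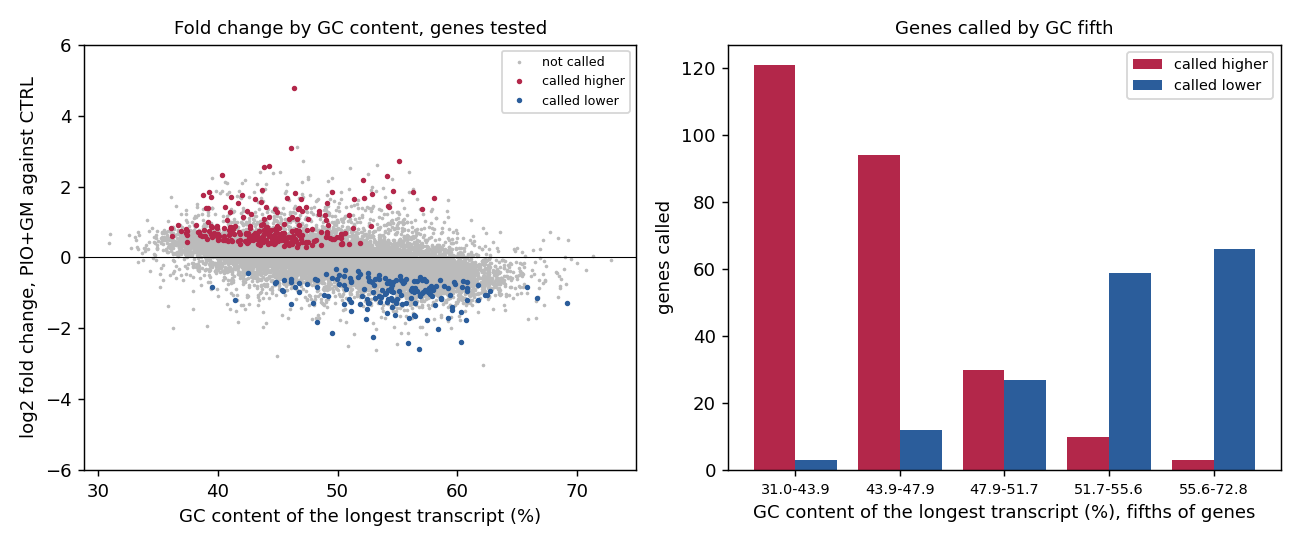
Left, log2 fold change of PIO + GM against CTRL at 6 h (y axis) against transcript GC content in percent (x axis) for the tested genes, with called genes coloured. Right, genes called higher and lower in 5 bins of equal size by GC content. The cloud slopes downward, and calls pass from 121 higher and 3 lower at low GC to 3 higher and 66 lower at high GC.

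Of 59 tested genes of a type I interferon response list, 59 had a higher value in PIO + GM, with a median log2 fold change of 1.17 against -0.02 over all genes tested. Of them, 11 rose past the threshold and 0 fell, beside the 1.6% of all genes called higher. The libraries of PIO + GM and CTRL did not overlap for 21 of the 59 genes, all higher in PIO + GM, beside 9.65% of all tested genes. The median GC content of the list was 49.5%, close to the 49.8% of all genes, and the median with the GC trend removed was 1.13, with 5 genes called.

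Rsad2, which encodes viperin, an antiviral enzyme that makes a chain-terminating nucleotide, was at 158, 69.8 and 28.4 CPM in PIO + GM and at 15.2, 22.3 and 5.27 in CTRL. The groups did not overlap, although PIO + GM replicate 3 was only slightly above CTRL replicate 2. Its log2 fold change was 2.59 ± 0.67 (SE, adjusted p = 0.0441, and 0.0705 with the GC trend removed). Ifit2, which binds viral RNA, stood at 53, 38.1 and 19.6 CPM against 8.61, 18.9 and 5.67, again without overlap. It changed by 1.75 ± 0.37 on the log2 scale (adjusted p = 0.025). Rsad2 and Ifit2 both had their highest level in PIO + GM replicate 1 and their lowest in CTRL replicate 3.

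Guanylate-binding proteins and immunity-related GTPases, which attack the vacuoles of intracellular microbes, were among the called genes. Gbp6 was at 135, 117 and 135 CPM in PIO + GM and at 35.8, 40.1 and 43.2 in CTRL, and its log2 fold change of 1.70 ± 0.19 had the lowest adjusted p of all genes (0.00049). Iigp1 was at 54.9, 60.8 and 45.9 CPM against 14.3, 15.9 and 15.3 (1.83 ± 0.36, adjusted p = 0.0176). In both genes the replicates of a group lay close together and the groups were far apart. Gbp10 (1.64 ± 0.22) and Gbp8 (1.56 ± 0.24) were called too, and Gbp6, Gbp8 and Gbp10 lie in one cluster on chromosome 5, with Gbp8 starting at 105012513 and Gbp6 ending at 105295871 (GRCm38.p6). Of the 76-base windows of their transcripts, 67.2% in Gbp6, 77.6% in Gbp10 and 7.87% in Gbp8 also occur in another gene, so reads may be split among the copies and the value of each single gene is uncertain.

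Sensors and modifiers of the pathway were called beside the effectors. Eif2ak2, which encodes PKR, a kinase that stops translation on double-stranded RNA, rose from 49.4, 62.8 and 41.8 CPM to 121, 90.9 and 117 (1.09 ± 0.16, adjusted p = 0.00265, and 0.0188 with the GC trend removed). PIO + GM replicate 1 was its highest library, and the groups did not overlap. Parp9, an ADP-ribosyltransferase of the antiviral response (1.09 ± 0.22), and Herc6, the main ligase that attaches ISG15 in mice (1.71 ± 0.35), were called with adjusted p-values of 0.0181 and 0.0191, which were 0.0273 and 0.0525 with the GC trend removed. Isg15, the ubiquitin-like modifier, was at 21.7, 9.23 and 5.67 CPM against 3.38, 5.38 and 1.2, without overlap, and did not pass (1.89 ± 0.57, adjusted p = 0.0736).

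Further interferon genes had high fold changes that missed the threshold. Cxcl10, a chemokine that attracts T cells, was at 54.4, 33.3 and 2.43 CPM against 2.49, 8.38 and 3.03, so replicate 3 of PIO + GM was at the CTRL level (2.71 ± 0.81, adjusted p = 0.0706). Ifi44 (1.87 ± 0.60), Usp18, which removes ISG15 and dampens the receptor (1.94 ± 0.68), and Irf7, the factor that amplifies interferon production (1.62 ± 0.62), had adjusted p-values of 0.0856, 0.106 and 0.133. Gbp2 (1.10 ± 0.45) had 0.157. Values of PIO + GM and CTRL overlapped for Usp18, Irf7, Gbp2 and Cxcl10, but not for Ifi44.

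Summed over the 60 listed genes, the interferon response reached 3330, 1848 and 1519 CPM in PIO + GM and 968, 1338 and 675 in CTRL. The sum was 1518, 2128 and 2150 in GM and 1314, 897 and 1120 in PIO. CTRL replicate 2 thus came close to PIO + GM replicate 3. Without PIO + GM replicate 1, the median of the list was 0.65, with 51 of 59 genes higher and 8 called, in a fit that called 1742 of all 16613 genes higher, and without CTRL replicate 2 it was 1.52, with 18 called. The number called was 4 and 6 without PIO + GM replicate 2 or 3, and 2 without CTRL replicate 1 or without CTRL replicate 3. The Schwann cell list, which stands for glia, summed to 3725, 1868 and 807 CPM in PIO + GM and 2136, 3005 and 1527 in CTRL, highest in the same libraries of each group as the interferon sum. The macrophage and leukocyte list summed to 232, 168 and 177 against 168, 338 and 157. That list and the endothelial, cartilage and stria lists were also highest in PIO + GM replicate 1 and CTRL replicate 2. The pattern is thus not particular to glia. The part of any of these cell types in the interferon values was not tested.

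**Figure D3:**
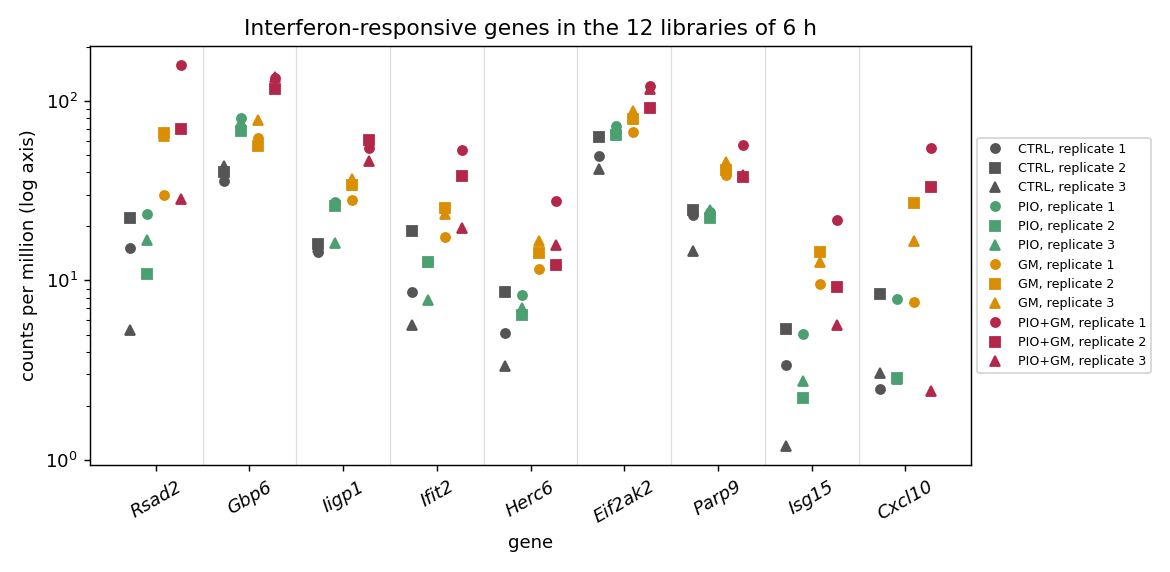
CPM on a log axis of 9 interferon-responsive genes in the 12 libraries of 6 h, with colours for CTRL, PIO, GM and PIO + GM and symbols for replicates. For Gbp6 and Iigp1 the 3 PIO + GM libraries form a tight group above the other 9 libraries. For Cxcl10, PIO + GM replicate 3 (2.43 CPM) lies with CTRL.

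The promoters of these genes were searched for the letters of the interferon-stimulated response element, taken as 2 copies of GAAA with 2 bases between them on either strand, in 250 bases before and 50 after the start (RefSeq, GRCm38.p6). A match was present in 22 of the 45 interferon promoters given, and in 2.96% of the promoters of all tested genes. Of the 7 called interferon genes with a promoter in the table, 4 held a match. Over the 45 genes the median log2 fold change was 1.18 with a match and 0.95 without, and over the 7 called genes it was 1.32 with a match and 1.71 without. The 250 bases before the start are shown 5′ to 3′ on the strand of the gene for 3 genes described above, of which Isg15 holds 3 matches and the others 1 each, with matches in capitals.
Isg15, 3 overlapping matches, chr4:156200819-156201068, minus strand: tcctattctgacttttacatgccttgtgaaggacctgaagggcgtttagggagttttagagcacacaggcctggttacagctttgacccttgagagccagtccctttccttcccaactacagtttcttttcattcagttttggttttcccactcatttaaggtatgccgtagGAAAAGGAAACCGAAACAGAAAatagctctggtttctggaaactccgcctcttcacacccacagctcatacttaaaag
Rsad2, 1 match on the opposite strand, chr12:26456453-26456702, minus strand: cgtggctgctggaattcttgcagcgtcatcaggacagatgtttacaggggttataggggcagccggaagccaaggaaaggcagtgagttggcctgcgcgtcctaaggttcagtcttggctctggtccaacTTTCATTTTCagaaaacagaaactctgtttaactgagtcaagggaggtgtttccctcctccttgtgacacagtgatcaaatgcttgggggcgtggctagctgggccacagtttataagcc
Cxcl10, 1 match, chr5:92348890-92349139, minus strand: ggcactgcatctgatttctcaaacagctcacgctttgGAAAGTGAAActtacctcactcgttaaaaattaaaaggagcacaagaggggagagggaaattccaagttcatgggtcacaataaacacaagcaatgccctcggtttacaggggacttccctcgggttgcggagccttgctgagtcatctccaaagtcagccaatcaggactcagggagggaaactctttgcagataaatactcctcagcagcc
A match is a description of letters and does not show that a factor bound there.

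Among PPAR targets and genes of fatty acid oxidation, 3 of 56 tested members rose, 1 fell and 34 had a higher value (median log2 fold change 0.08), beside 1.6% of all genes called higher and 1.04% lower. Cpt1a, the carnitine transferase that lets long-chain fatty acids into mitochondria, was at 144, 116 and 129 CPM in PIO + GM and at 71.2, 83.5 and 64.8 in CTRL. Its groups stood well apart, with a log2 fold change of 0.83 ± 0.12 (adjusted p = 0.00265), and with the GC trend removed the change was 0.91 (adjusted p = 0.000336). It lies on chromosome 19 (3322326 to 3385735). Acadl, the long-chain acyl-CoA dehydrogenase, was at 63.5, 63 and 69.4 against 43.6, 52.3 and 38.6 CPM (0.54 ± 0.12, adjusted p = 0.0283), and lost its call with the GC trend removed (0.121). Etfdh, which passes the electrons of that step to the respiratory chain, was at 44.7, 66.1 and 70.3 against 36.8, 41.9 and 39.2 CPM (0.62 ± 0.14, adjusted p = 0.0287).

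The member that fell was Plin4, a coat protein of lipid droplets abundant in fat cells and known as a PPAR-γ target. It was at 5.68, 2.17 and 1.76 CPM in PIO + GM and at 18.8, 20.7 and 13.2 in CTRL, without overlap. The log2 fold change was -2.43 ± 0.44 (adjusted p = 0.00998, and 0.00794 with the GC trend removed). Pparg itself was low and did not differ detectably, at 2.37, 2.33 and 2.03 CPM against 2.09, 1.68 and 1.68 (0.31 ± 0.39, adjusted p = 0.648). Of 31 genes of sterol synthesis and 18 LXR targets, 0 were called by edgeR, with 6 and 3 at an unadjusted p under 0.05 and 1 in each list by DESeq2. With edgeR, 5 and 3 were called lower without PIO + GM replicate 1. Without PIO + GM replicate 1, 8 of 58 members of the fatty acid list were called higher and 5 lower, in a fit that called 1742 and 1825 of all 16613 genes, and without PIO + GM replicate 2 or 3, 1 higher and 0 lower. Srebf2, the master factor of sterol synthesis, was at 85.8, 55.6 and 43.5 CPM against 138, 93.2 and 91.5 (-0.80 ± 0.22, adjusted p = 0.0511).

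In the fit that called 431 genes, epithelial keratins and junction genes had the most called members among the lists on the lower side, with 6 of 38 lower (beside 1.04% of all genes) and 0 higher. With the GC trend removed they had 2 called lower, as did the matrix protease list and the list of YAP and SRF targets. Krt19, a keratin of simple epithelia, was at 26.4, 29.5 and 24.3 CPM in PIO + GM and 49.8, 47.6 and 59.1 in CTRL. Krt8, which pairs with such keratins in filaments, was at 129, 161 and 102 against 211, 315 and 243 CPM. The groups did not overlap for either, with log2 fold changes of -0.96 ± 0.14 and -0.97 ± 0.19 (adjusted p = 0.00265 and 0.0139). Krt7 (-1.73 ± 0.43) and Krt80 (-2.25 ± 0.42) fell as well, and so did Cldn6 (-1.15 ± 0.21), a claudin of tight junctions in early epithelia. Transcripts of these genes were GC-rich, and with the GC trend removed only Krt7 (adjusted p = 0.0461) and Krt80 (0.0158) kept the call among the named ones, while Krt19 and Krt8 had adjusted p-values of 0.0902 and 0.12. Of the list, 2 members were called lower without PIO + GM replicate 2 or 3, 3 without CTRL replicate 1 or 3, and 9 without PIO + GM replicate 1, where 1825 of 16613 genes were called lower. Windows shared with a pseudogene made up 21.8% of those of Krt8.

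Genes of the actin cytoskeleton that respond to YAP and SRF had 4 of 28 members called lower, beside 1.04% of all genes, 0 higher, and 26 with a lower value (median -0.46, and -0.27 with the GC trend removed). Cnn2, an actin-binding calponin, was at 24.9, 18.6 and 21.2 CPM against 47.3, 46.6 and 61.7 in CTRL (-1.26 ± 0.20, adjusted p = 0.0031). Axl, the receptor for GAS6 and a YAP target, was at 111, 60.6 and 55 against 180, 181 and 150 CPM (-1.17 ± 0.21, adjusted p = 0.00998). Both had no overlap, and both kept their calls with the GC trend removed (0.00369 and 0.00217). Tpm2, a tropomyosin (-0.95 ± 0.22), and Flna, which crosslinks actin (-0.59 ± 0.16), passed with 0.0324 and 0.0495 and no longer did with the trend removed. The count of 4 was 9 of 29 without PIO + GM replicate 1 (1825 of 16613 genes), 1 without PIO + GM replicate 2 or 3 or CTRL replicate 1, and 2 without CTRL replicate 3.

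**Figure D4:**
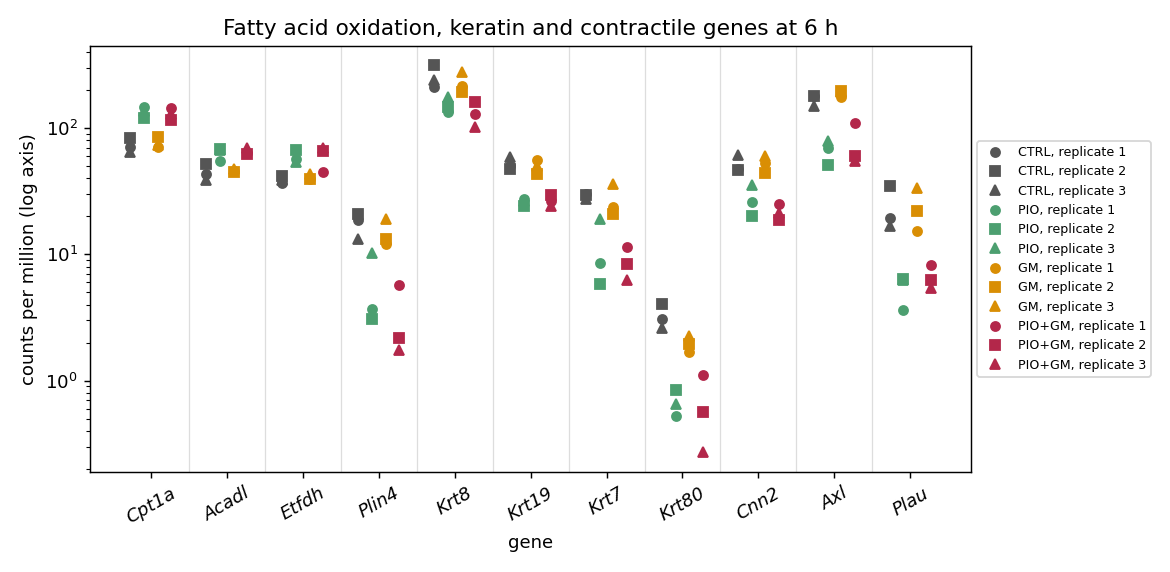
CPM on a log axis of 11 genes of fatty acid oxidation, lipid droplets, keratins, contractile proteins and proteolysis in the 12 libraries of 6 h, with colours for groups and symbols for replicates. PIO + GM libraries lie above CTRL for Cpt1a, Acadl and Etfdh and below it for the other 8 genes.

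Of 58 collagens and matrix genes, 54 had a lower value in PIO + GM (median log2 fold change -0.62, and -0.37 with the GC trend removed), yet 1 was called lower and 0 higher, Col18a1, which makes endostatin (-0.85 ± 0.22, adjusted p = 0.0433, and 0.428 with the GC trend removed). Summed, the list was at 33195, 22067 and 19073 CPM against 36699, 38959 and 31194, so PIO + GM replicate 1 lay within the CTRL range. Without that library, 17 members were called lower, beside 1825 of 16613 genes. Of 44 matrix proteases and inhibitors, 2 fell, beside 1.04% of all genes, and 9 were called lower without PIO + GM replicate 1, 0 without PIO + GM replicate 2 or 3, and 1 without any one CTRL library. Adamts14, which trims procollagen, was at 16.4, 12.4 and 10.9 against 33.5, 21.6 and 55.7 CPM (-1.47 ± 0.27, adjusted p = 0.0123), and Timp3, an inhibitor held in the matrix, changed by -0.71 ± 0.18 (adjusted p = 0.0399) with overlapping libraries. Plau, the urokinase that activates plasmin, was the 1 called member of the complement and coagulation list, at 8.3, 6.26 and 5.4 CPM against 19.3, 34.8 and 16.8 (-1.82 ± 0.31, adjusted p = 0.00856, and 0.00794 with the trend removed). Ccnd1, the cyclin that drives cells into division, fell from 118, 113 and 135 to 74.2, 42.4 and 45.4 CPM (-1.18 ± 0.31, adjusted p = 0.0491, and 0.0612 with the trend removed). Ccnd1 was the 1 called member of 46 cell cycle genes, beside 1.04% of all genes called lower. Of these 46, 27 had a higher value (median 0.04).

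Among other genes with large changes, Mrgprf, an orphan receptor, fell most, from 12.2, 4.15 and 5.51 to 1.78, 0.963 and 0.811 CPM (-2.58 ± 0.52, adjusted p = 0.019). Cspg4, the NG2 proteoglycan of pericytes and glial precursors, fell from 67.6, 34.2 and 38.8 to 25, 10.5 and 7.16 CPM (-1.71 ± 0.38, adjusted p = 0.0287). Neither overlapped between the groups, but lack of overlap was a condition for naming the genes of this paragraph. Cpne7 (-2.01), Pak6 (-1.76), Igfbp6 (-1.76), Lrtm2 (-1.72) and the host transcript Mirc35hg (-1.76) were also called lower without overlap, and Igfbp6 (adjusted p = 0.0789) and Lrtm2 (0.0596) lost the call with the GC trend removed. Scn4a, the sodium channel of skeletal muscle, was at 15.8, 24.2 and 12 CPM against 4.83, 7.15 and 2.32 (1.87 ± 0.43, adjusted p = 0.0311). Trim17 (1.79), Itgae (1.64), F830016B08Rik (2.34) and Gm15319 (1.76) were called higher without overlap. For Gm15319, 85.6% of the 76-base windows also occur elsewhere, so its value is uncertain.

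In the cell type lists other than that of spiral ganglion neurons, most members had lower values, and few were called in any. Without CTRL replicate 2 the direction turned for macrophage genes (31 higher, 14 lower), cartilage genes (13 higher, 9 lower) and Schwann cell genes (15 higher, 11 lower), and without PIO + GM replicate 3 for Schwann cell genes (17 higher, 9 lower). It also turned for red blood cell genes (7 higher, 6 lower) without PIO + GM replicate 1 and without PIO + GM replicate 2. Each marker in the table had at least 1 count in the 6 libraries, and 1 of 16 red blood cell genes was not in the table. Of 55 hair cell genes, 39 had a lower value (median -0.30, and -0.14 with the GC trend removed), and 1 fell (beside 1.04% of all genes), Lhx3, a factor of hair cell and neuron fate, at 0.593, 0.963 and 0.54 CPM against 3.22, 1.5 and 6.55 (-2.38 ± 0.53, adjusted p = 0.0283, and 0.0755 with the trend removed). The summed level of the list was 1542 to 2011 CPM in PIO + GM and 1415 to 2596 in CTRL, which overlap. Without CTRL replicate 3, the median of the hair cell list was -0.0016, and without CTRL replicate 2, 7 members were called lower. Of 45 supporting cell genes, 2 fell, beside 1.04% of all genes. They were Lgr6, a receptor for R-spondins (-1.27 ± 0.34), and Hes1, a target of Notch (-0.88 ± 0.23), both called with an adjusted p of 0.0491 and neither called with the GC trend removed. Of the list, 8 members were called lower without PIO + GM replicate 1, beside 1825 of 16613 genes. The number was 0 without PIO + GM replicate 2 or 3, without CTRL replicate 1 or 3, or without TMM factors. Their summed level ranged from 8472 to 13853 against 8493 to 16398 CPM.

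Endothelial and pericyte genes (24 of 24 with a lower value, median -0.61, and -0.42 with the GC trend removed) had 1 called member, Cspg4, beside 1.04% of all genes called lower. Fibroblast genes had 1 of 27, Pdgfra, the PDGF receptor of mesenchyme, at 265, 243 and 232 against 389, 390 and 352 CPM (-0.61 ± 0.14, adjusted p = 0.0287, and 0.0226 with the GC trend removed). Cartilage genes had 1 of 22, Sox5, a partner of SOX9 (-0.70 ± 0.16, adjusted p = 0.0311). Both kept their call with the trend removed. In the endothelial and fibroblast lists 0 members were called without PIO + GM replicate 2 or 3 or CTRL replicate 1 or 3. In the cartilage list 0 were called without PIO + GM replicate 2 or any one CTRL library. Without PIO + GM replicate 1, 4, 5 and 2 members of these 3 lists were called lower, beside 1825 of 16613 genes. In the lists of Schwann cell, neuron, macrophage, stria and red blood cell genes, edgeR called 0 members, with 2, 1, 4, 3 and 1 at an unadjusted p under 0.05. In the first 4 of these lists, DESeq2 called 1 (lower), 1 (lower), 3 (2 higher, 1 lower) and 1 (lower). Over all genes it called 745 higher and 543 lower of 14417. The likelihood ratio test called 1 neuron and 1 stria gene, both lower. Without PIO + GM replicate 1, 25 of 26 Schwann cell genes had a lower value (median -0.99) and 4 were called lower, beside 1825 of 16613 genes. Neuron genes had a higher value for 16 of 29 (median 0.10, and -0.22 without PIO + GM replicate 1). Stria genes had a median of -0.72, which was -0.10 without CTRL replicate 2.

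Stress programs had few called members. Of 44 genes of the integrated stress response, 34 chaperones of the unfolded protein response, 45 genes of the NRF2 response and 37 immediate early genes, edgeR called 0, with 1, 1, 11 and 1 at an unadjusted p under 0.05, beside 3851 of all 16317 genes. DESeq2 called 1 of these genes, a member of the NRF2 list. Immediate early genes had a lower value for 31 of 37 (median -0.31, and -0.15 with the GC trend removed), with a median of -0.07 without PIO + GM replicate 3. The median of the integrated stress response was -0.17, and 0.09 without PIO + GM replicate 3. Without PIO + GM replicate 1, 7 of its genes were called lower, and 2 NRF2 genes higher and 7 lower, in a fit that called 1742 genes higher and 1825 lower of 16613. Pck2 of the integrated stress response was at 155, 96.9 and 57.8 CPM against 151, 130 and 157 (adjusted p = 0.212), and Btg2, an immediate early gene, at 39.1, 40.1 and 39.3 against 43.5, 49.7 and 70.4 (adjusted p = 0.14). Gpx1, a peroxidase with selenium, was at 42.2, 36 and 28.6 against 61.5, 64.3 and 56.7 CPM (-0.77 ± 0.22, adjusted p = 0.0597). Of 30 p53 targets, Rrm2b, which supplies nucleotides for repair (0.89 ± 0.18, adjusted p = 0.0194, and 0.0158 with the GC trend removed), and Ercc5, a repair nuclease (0.44 ± 0.11, adjusted p = 0.0433), rose, beside 1.6% of all genes. Of these targets, 0 were called without PIO + GM replicate 2 or 3 or CTRL replicate 1 or 3, and 5 higher and 5 lower without PIO + GM replicate 1. Casp6, an executioner caspase, rose from 17.4, 14.5 and 15.5 to 19.1, 25.8 and 32.7 CPM (0.71 ± 0.18, adjusted p = 0.0432), and Hsf2, a heat shock factor, by 0.59 ± 0.15 (adjusted p = 0.0436). Casp6 was the 1 called of 29 apoptosis regulators, of which 14 had a higher value and 15 a lower one (median -0.09). Hsf2 was the 1 called of 36 heat shock genes, of which 28 had a higher value (median 0.16). Both counts stand beside 1.6% of all genes called higher. Casp6, Hsf2 and Ercc5 did not pass with the trend removed.

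Of 59 genes of Toll-like receptor and STAT signalling, 21 had a higher value and 38 a lower one (median log2 fold change -0.16, and -0.04 with the GC trend removed). Of them, 1 was called higher and 0 lower, beside 1.6% and 1.04% of all genes, and 0 with the GC trend removed. The called member is not reported here by name. Without CTRL replicate 2 the median was 0.02, with 31 higher, and without PIO + GM replicate 1 it was -0.38. Tlr4, the receptor for endotoxin, was at 29, 33.6 and 45.3 CPM against 31.1, 46 and 28.4 (0.03 ± 0.23, adjusted p = 0.951), and Tlr2 at 23.2, 17 and 13.8 against 13, 31.1 and 18.2 (-0.20 ± 0.27, adjusted p = 0.674). Both overlapped between the groups. The adaptors Myd88 (-0.23 ± 0.31) and Tirap (-0.24 ± 0.17) and the factor Irf3 (-0.22 ± 0.18) had adjusted p-values of 0.666, 0.392 and 0.46. Pias1, a SUMO ligase, was at 57.4, 84 and 83.8 against 59.8, 53.2 and 53.9 CPM (0.43 ± 0.12, adjusted p = 0.0559, and 0.43 with the GC trend removed). Of the 19 tested genes that the study names, 11 had a higher value and 8 a lower one. Of the 19, 1 was called higher and 0 lower, and 0 with the GC trend removed. As these genes were picked from the same libraries, their direction is not independent evidence.

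Of 37 chemokines and cytokines tested, edgeR called 0, with 10 at an unadjusted p under 0.05 (3851 of 16317 over all genes). DESeq2 called 2, both higher, beside 745 higher of 14417 over all genes. Ccl2, which recruits monocytes, was at 56.8, 29.2 and 4.46 CPM against 7.32, 51.1 and 8.39 (0.45 ± 0.85, adjusted p = 0.771), with a range in each group wider than the difference between them. Ccl9 (-1.33 ± 0.49), Cxcl16 (-0.54 ± 0.27) and Il16 (-0.72 ± 0.32) had adjusted p-values of 0.12, 0.235 and 0.183, and Ccl12, at 1.86 CPM or less in PIO + GM, 0.665. The median of the list was -0.08, and 0.70 without CTRL replicate 2. Without PIO + GM replicate 1 it was -0.48, with 1 member called higher and 4 lower, beside 1742 and 1825 of 16613 genes.

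**Figure D5:**
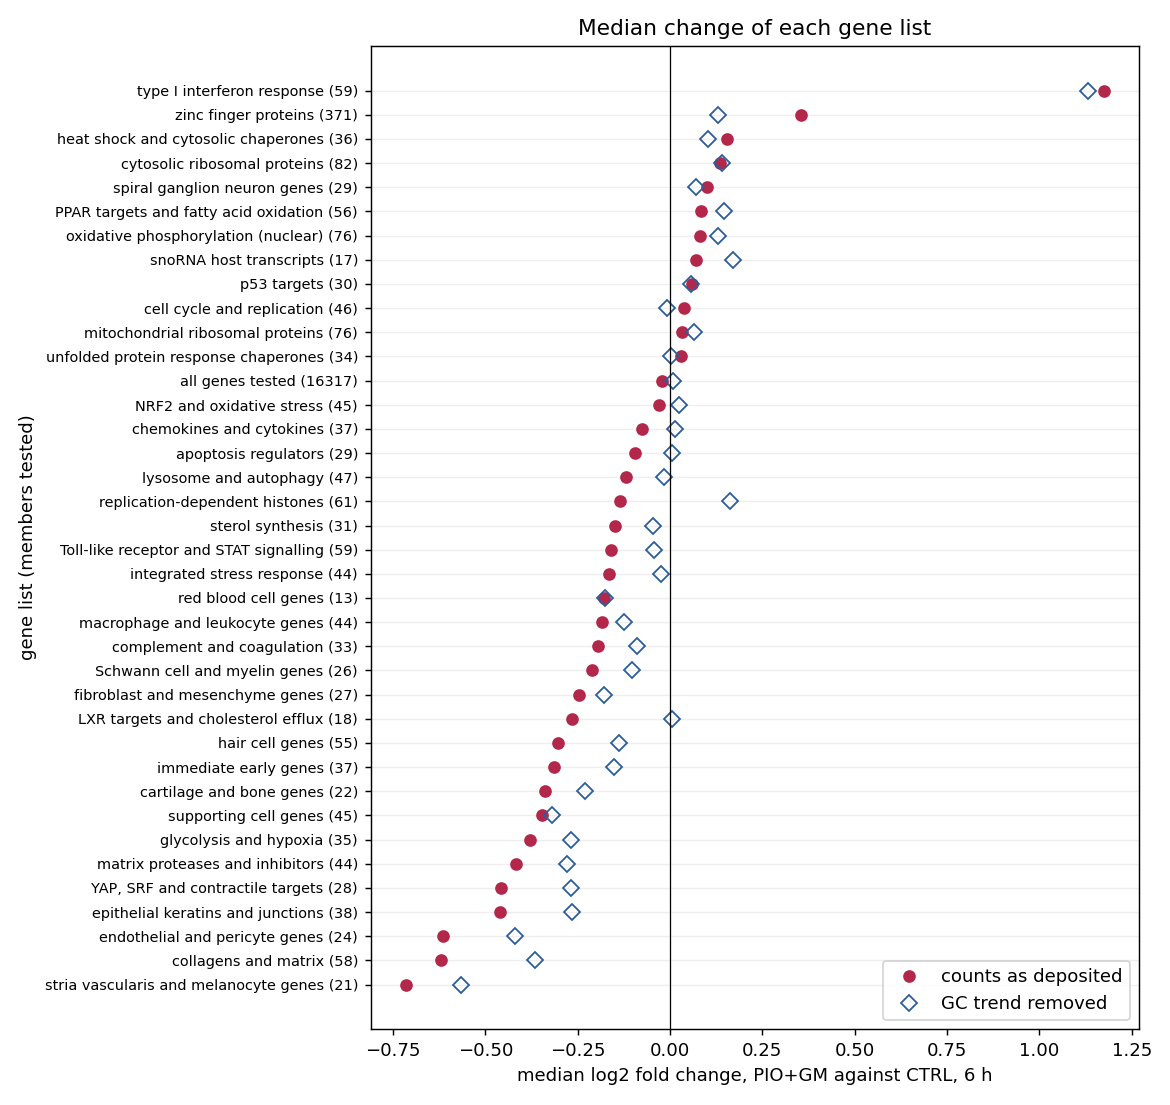
Median log2 fold change of PIO + GM against CTRL at 6 h (x axis) for each gene list (y axis, number of tested members in brackets), from the deposited counts (circles) and with the GC trend removed (diamonds). The interferon list stands at 1.17 and 1.13, and no other list drawn lies above 0.36, while matrix, vessel and stria lists lie lowest on both scales.

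The single drugs were set beside these values without a test between comparisons, since they share the CTRL libraries. In GM against CTRL at 6 h, edgeR called 0 genes (0%, with 243 at an unadjusted p under 0.05), and in PIO against CTRL 55 (0.337%). The interferon list had a median of 1.04 in GM, with 59 of 59 genes higher, and 0.02 in PIO, with 31 of 59. For Rsad2, the log2 fold change was 2.59 in PIO + GM, 1.91 in GM and 0.26 in PIO. For Gbp6 it was 1.70, 0.72 and 0.91. Plin4 was at -2.43 in PIO + GM, -0.24 in GM and -1.61 in PIO, and Axl was at -1.17, 0.15 and -1.35. Cpt1a was at 0.83, 0.06 and 0.88. Over the 261 genes called higher in PIO + GM, the median was 0.66 in PIO + GM, 0.11 in GM and 0.52 in PIO. Over the 170 called lower, it was -0.92, -0.02 and -0.69. These genes were chosen by their values in PIO + GM against the same CTRL libraries, and PIO replicate 2 had a GC slope (rho of -0.64) like those of PIO + GM replicates 2 and 3, so nothing is read from the likeness of these medians.

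Departure from additive drug effects, tested as the effect of gentamicin with pioglitazone minus that without, was called for 0 genes (293 at an unadjusted p under 0.05, and 0 by DESeq2 and by the likelihood ratio test of edgeR). In the interferon list, 0 of 59 genes had an unadjusted p under 0.05 in that test, and the median of the departure was 0.04 on the log2 scale.

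At 24 h, PIO + GM against CTRL gave 78 called genes (0.478%), 22 higher and 56 lower. The interferon list then had a median of -0.42, with 50 of 59 genes lower, and summed to 1200, 982 and 886 CPM in PIO + GM and 1143, 874 and 1522 in CTRL. The difference between 6 h and 24 h was called for 0 genes (978 at an unadjusted p under 0.05, 12 by DESeq2 and 15 by the likelihood ratio test). Of the 59 interferon genes, 41 had an unadjusted p under 0.05 for that difference and 59 were higher at 6 h. Cpt1a stood at 1.12 at 24 h and 0.83 at 6 h, and Plin4 at -0.74 and -2.43.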

How the data were processed

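Stranded total RNA libraries were sequenced as single reads of 76 bases. Per the labels, the submitters' processing notes name STAR and the build mm10, and the study's methods give the counting by the qCount function of QuasR, as reads starting in any RefSeq exon of a gene. The deposited counts are raw and unfiltered, for 24454 Entrez identifiers, of which 24381 were given a symbol, together with 1 column of gene length. The treatment of reads with several matches is not given in the sources used here. The labels list several flow cells for each library, and whether their reads were pooled is not stated.

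From these counts, 16317 genes were kept by filterByExpr, scaled by TMM and fitted with a mean per group over all 24 libraries in edgeR 4.0.16 (R 4.3.3), with quasi-likelihood F-tests and Benjamini-Hochberg adjustment over all tested genes (threshold 0.05). Standard errors come from the F statistic. log2 CPM used a prior count of 2. All 24 libraries share one estimate of the spread, and each treatment was done in triplicate per the labels. Whether the libraries of a group came from separate litters or days is not given in the sources used here, and the p-values measure the spread between these samples. Exact permutation of 3 against 3 libraries cannot give a p below 0.1, and was not used. Alternatives were library totals without TMM factors, DESeq2 size factors, other filters, DESeq2 1.42.0, the likelihood ratio test, fits of 12 or 6 libraries, the replicate number as a block, removal of a loess trend of GC content (span 0.3) from each library, a prior count of 0.5, and leaving out each library. GC content came from the longest GENCODE vM21 transcript, known for 15389 of the tested genes.

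The comparison and the gene lists were chosen with earlier results of these data known. Lists were written by hand and are described by counts and medians without a set test. Named genes are the 12 with the largest change in each direction among called genes with no overlap of libraries and at least 20 counts on average, up to 4 called members of each list by p-value (or up to 2 where none was called), genes the study names, and up to 3 called genes per direction for each of the 2 interactions (none was called). Of the 108 genes so chosen, 75 had a promoter in the RefSeq table. Promoters were also searched for elements of PPAR, sterol, amino acid and heat shock response, with matches in 3.82%, 1.22%, 0.93% and 0.53% of all promoters, and these matches are not described further. 1 gene of the lists is not reported here by name.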

Additional observations from a re-analysis of the deposited data

How the results depend on the processing

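The counts of called genes are the values that moved most. For PIO + GM against CTRL at 6 h (431 called, 261 higher, 170 lower), the alternatives gave 158 (93, 65) with no filter, 589 (392, 197) with at least 10 counts in every library, 1288 (745, 543) with DESeq2, 788 (418, 370) with the likelihood ratio test, 2 (2, 0) with the 12 libraries of 6 h and 2 (2, 0) with the 6 libraries, and 241 (153, 88) with the GC trend removed. Leaving out 1 library gave 31 to 3567 called, 21 to 1742 higher and 7 to 1825 lower, with the lowest total without PIO + GM replicate 2 and the highest without PIO + GM replicate 1. The replicate numbers were not taken to pair the libraries. Deviations of same-numbered PIO + GM and CTRL libraries correlated at 0.067, 0.021 and 0.261, too few values to show that no pairing exists. With the replicate block, the common biological coefficient of variation was 0.177, against 0.225 without it, and 1543 genes were called (783, 760). With the block and the GC trend removed, 796 were called (432, 364). The difference between 6 h and 24 h (0 called) gave 12 with DESeq2, 15 with the likelihood ratio test, 2 with the replicate block (Iigp1 and Ecm2) and 1 with the block and the GC trend removed (Atp10a). Departure from additivity gave 0 in each alternative run. With the block, 2 sterol genes and 2 LXR targets were called lower. The cause of these moves was not tested.

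Of 55 called genes named by the rule, 0 changed direction in any alternative, and the call was kept in 584 of 929 fits of single genes. The kept direction is no independent check, as these genes were chosen by their calls in the same libraries. Direction turned only for genes that were not called: with the GC trend removed, and with the block as well, for Cox4i1 (0.11 and 0.10), Rpl8 (0.032 and 0.033), Irf3 (0.12 and 0.12) and Tlr4 (-0.29 and -0.30), and without 1 library for Alas2 (-0.79 to 0.0088), Tlr2 (-0.45 to 0.21), Myd88 (-0.82 to 0.080), Ccl2 (-0.38 to 1.95), Ccl12 (-1.4 to 0.77) and Tlr4 (-0.17 to 0.27). Medians of lists moved by more than the spread between replicates in 35 of 646 fits, and the GC trend turned those of LXR targets (0.0064), chemokines (0.01), NRF2 genes (0.02), apoptosis regulators (0.0043), cell cycle genes (-0.0091) and histones (0.16). Depth limits genes near 3 counts, about 0.4 CPM in PIO + GM replicate 3.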

Other observations

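Zinc finger genes, a family of DNA-binding proteins with AT-rich transcripts, had some called members. Of 371 tested, 17 were called higher and 2 lower, beside 1.6% and 1.04% of all genes, and 263 had a higher value, with a median log2 fold change of 0.35. Their median GC content was 44.0%, against 49.8% for all genes, and with the GC trend removed the median was 0.13, with 5 called higher and 1 lower. The number called higher was 164 without PIO + GM replicate 1 (of 1742 over all genes), 1 without PIO + GM replicate 2, 3 without CTRL replicate 2, and 0 without PIO + GM replicate 3, CTRL replicate 1 or CTRL replicate 3. Zfp811 was at 5.08, 7.87 and 13 CPM in PIO + GM and 3.38, 3.62 and 3.35 in CTRL (1.30 ± 0.27, adjusted p = 0.0225 by edgeR), and Zfp287 at 27.4, 37.2 and 35.7 against 23.2, 22.6 and 23.6 (0.53 ± 0.12, adjusted p = 0.0287). Both kept their call with the trend removed.

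Genes of energy metabolism beyond fatty acid oxidation showed few calls. Of 35 genes of glycolysis and hypoxia, 28 had a lower value (median -0.38, and -0.27 with the GC trend removed) and edgeR called 0, with 3 at an unadjusted p under 0.05 and 1 by DESeq2. Of 76 nuclear genes of oxidative phosphorylation, 48 had a higher value (median 0.08) and edgeR called 0, with 8 at an unadjusted p under 0.05 and 1 by DESeq2. Ndufv2, a subunit of complex I, was at 63.6, 82.3 and 105 CPM against 59.3, 60.3 and 59.1 (0.49 ± 0.17, adjusted p = 0.107). Of 76 mitochondrial ribosomal proteins, 40 had a higher value and 1 was called lower, near the 1.04% of all genes. It was Mrpl54 (-0.66 ± 0.17, adjusted p = 0.0421, and -0.16 with the GC trend removed). Without PIO + GM replicate 1, 9 were called higher and 7 lower, beside 1742 and 1825 of 16613 genes. Cytosolic ribosomal proteins had a median of 0.14 with and without the trend, and edgeR called 0 of 82, with 3 at an unadjusted p under 0.05 and 0 by DESeq2. Of 61 histone genes, 23 had a higher value and 38 a lower one (median -0.14), and 1 was called higher, near the 1.6% of all genes. It was H2bc4 (1.10 ± 0.26, adjusted p = 0.0362, and 0.0755 with the GC trend removed), and 27% of its 76-base windows also occur in other histone genes.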
